A study of Canis lupus familiaris with 8 samples.

Results

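The genes described here build and anchor epithelial sheets or fill the cytoskeleton of mesenchymal cells: CDH1, CLDN3, OCLN, TJP1, KRT14, KRT19 and VIM. They were found on a canine 1-colour Agilent expression array by taking each gene probe whose RefSeq accession belongs to 1 of these 7 genes. That gave 12 of the 43603 gene probes, for 7 of the 1458 genes that could be named, and 11 of the 12 were bright enough to test. CDH1 had 3 probes, TJP1, KRT14 and VIM had 2 each, and CLDN3, OCLN and KRT19 had 1 each. Probes of a gene are given separately, because they did not always behave alike. A cell line and its drug-resistant subline were profiled, each as the whole line and as a sorted fraction, with 2 arrays per group. CMT-Stylo is a canine mammary adenocarcinoma line that received no drug. CMT-Star is a single subline raised from CMT-Stylo over months in rising doxorubicin, a DNA-damaging drug, until it withstood 100 nM, and its samples are labelled as doxorubicin treated. The submitters sorted CD44-positive cells with little or no CD24 and with aldehyde dehydrogenase activity out of both lines by flow cytometry and termed them cancer stem cells (CSC). Below, parent stands for the whole line and CSC for the sorted fraction, and all cells were kept in the same serum-containing medium.

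Epithelial cells hold together through a belt of adherens junctions, in which E-cadherin (CDH1) molecules of neighbouring cells bind each other, and through tight junctions, in which claudins and occludin seal the space between cells and ZO-1 (TJP1) ties them to actin. Keratins are the intermediate filaments of epithelia. KRT14 marks basal and KRT19 luminal cells of the mammary gland, while vimentin (VIM) is the intermediate filament of mesenchymal cells and is also made by many carcinoma lines in culture. Loss of E-cadherin with gain of vimentin is the usual description of an epithelial-to-mesenchymal transition.

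Each level below is the log2 of the scanner's processed signal less that array's 75th percentile, so that 0 means a probe as bright as the 75th percentile of the array. Levels of different probes cannot be set against each other. A difference between groups is a log2 difference of these levels with its standard error (SE) from a limma fit over all 8 arrays. A change was called where the Benjamini-Hochberg adjusted p over all tested probes was under 0.05 and the change was at least 2-fold. To see what the scaling decides, 6 other scalings were tried: the median, the 75th percentile taken over probes that every array detected, cyclic loess, quantile normalization, spike-in controls, and normexp background correction. Every group had n = 2 arrays, which limits the precision. Nothing in the labels says whether 2 replicates are 2 cultures. The p-values therefore cover only array-to-array spread, which may be technical. In RNA from whole samples, fewer cells of a type and less RNA per cell cannot be told apart.

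The arrays were not equally bright. The 75th percentile of the processed signal was 88.3 and 69.2 on the Stylo parent arrays and lay between 296 and 536 on the other 6. Between 46.7% and 47.4% of gene probes were well above background in Stylo parent, against 55.5% to 60.7% elsewhere. The faintest level that counted as well above background was therefore higher in Stylo parent (-3.30 and -3.13) than on the other arrays (-5.66 to -4.76). Replicates correlated at r = 0.982 to 0.996 over probes, Stylo parent with the other groups at 0.807 to 0.889, and other pairs of groups at 0.912 to 0.966. Both Stylo groups were on slide 1 and both Star groups on slide 2, scanned separately, so line and slide cannot be told apart, whereas each CSC fraction was compared with its parent within a slide. Values that involve Stylo parent are given with its low signal in view, and its part in the results was not tested. No gene spot was saturated.

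CDH1 was not detected in the untreated parent line and was clearly detected in its CSC fraction. Probe A_11_P0000040845 had a processed signal of 2.74 and 1.92 on the Stylo parent arrays, 191 and 208 on the Stylo CSC arrays, 29.2 and 22.4 on the Star parent arrays, and 69.9 and 73.1 on the Star CSC arrays. The corresponding levels were -5.01 and -5.17, then -0.70 and -0.51, then -3.67 and -3.89, then -2.94 and -2.67. The order was thus Stylo CSC, Star CSC, Star parent, Stylo parent, and no group overlapped its neighbour. Both Stylo parent values were below background, while all 6 other values were well above it.

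The CSC fraction of Stylo carried at least 6.12-fold more CDH1 signal than its parent on this probe (log2 difference 4.49 ± 0.15, limma adjusted p = 1.21e-05). Star CSC was 1.97-fold above Star parent (0.98 ± 0.15, adjusted p = 0.00761), just under the 2-fold limit. This difference stayed uncalled under 2 of the 6 other scalings and was called higher under the rest. Star CSC was 4.59-fold below Stylo CSC (-2.20 ± 0.15, adjusted p = 0.000152). No fold can be given between the parent lines, because the Star parent level lay under the faintest level that the Stylo parent arrays could measure. The fitted difference was 1.31 ± 0.15.

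The other CDH1 probes were fainter. A_11_P0000018401 had levels of -4.62 and -3.98 in Stylo parent (below background), -2.65 and -2.41 in Stylo CSC, -4.72 (below background) and -4.15 in Star parent, and -4.49 and -3.85 in Star CSC. Stylo CSC again stood highest, and the other 3 groups overlapped. Stylo CSC was at least 1.61-fold above its parent (1.77 ± 0.33, adjusted p = 0.00333) and Star CSC was 3.11-fold below Stylo CSC (-1.64 ± 0.33, adjusted p = 0.00742). Star CSC against Star parent gave 0.27 ± 0.33 (adjusted p = 0.567). The remaining probe, A_11_P053126, was not well above background on any array, with processed signals from 2.10 to 6.34, and was not tested. Normexp, which compresses faint signals, turned both Stylo rises (-0.09 and -1.37) and the fitted difference between the parent lines on the brighter probe (-1.65), while the lower CDH1 signal of Star CSC than of Stylo CSC on the brighter probe was called under all 6 other scalings. On A_11_P0000018401 the latter call ended with spike-in scaling (-0.97) and normexp (-0.96).

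**Figure D1:**
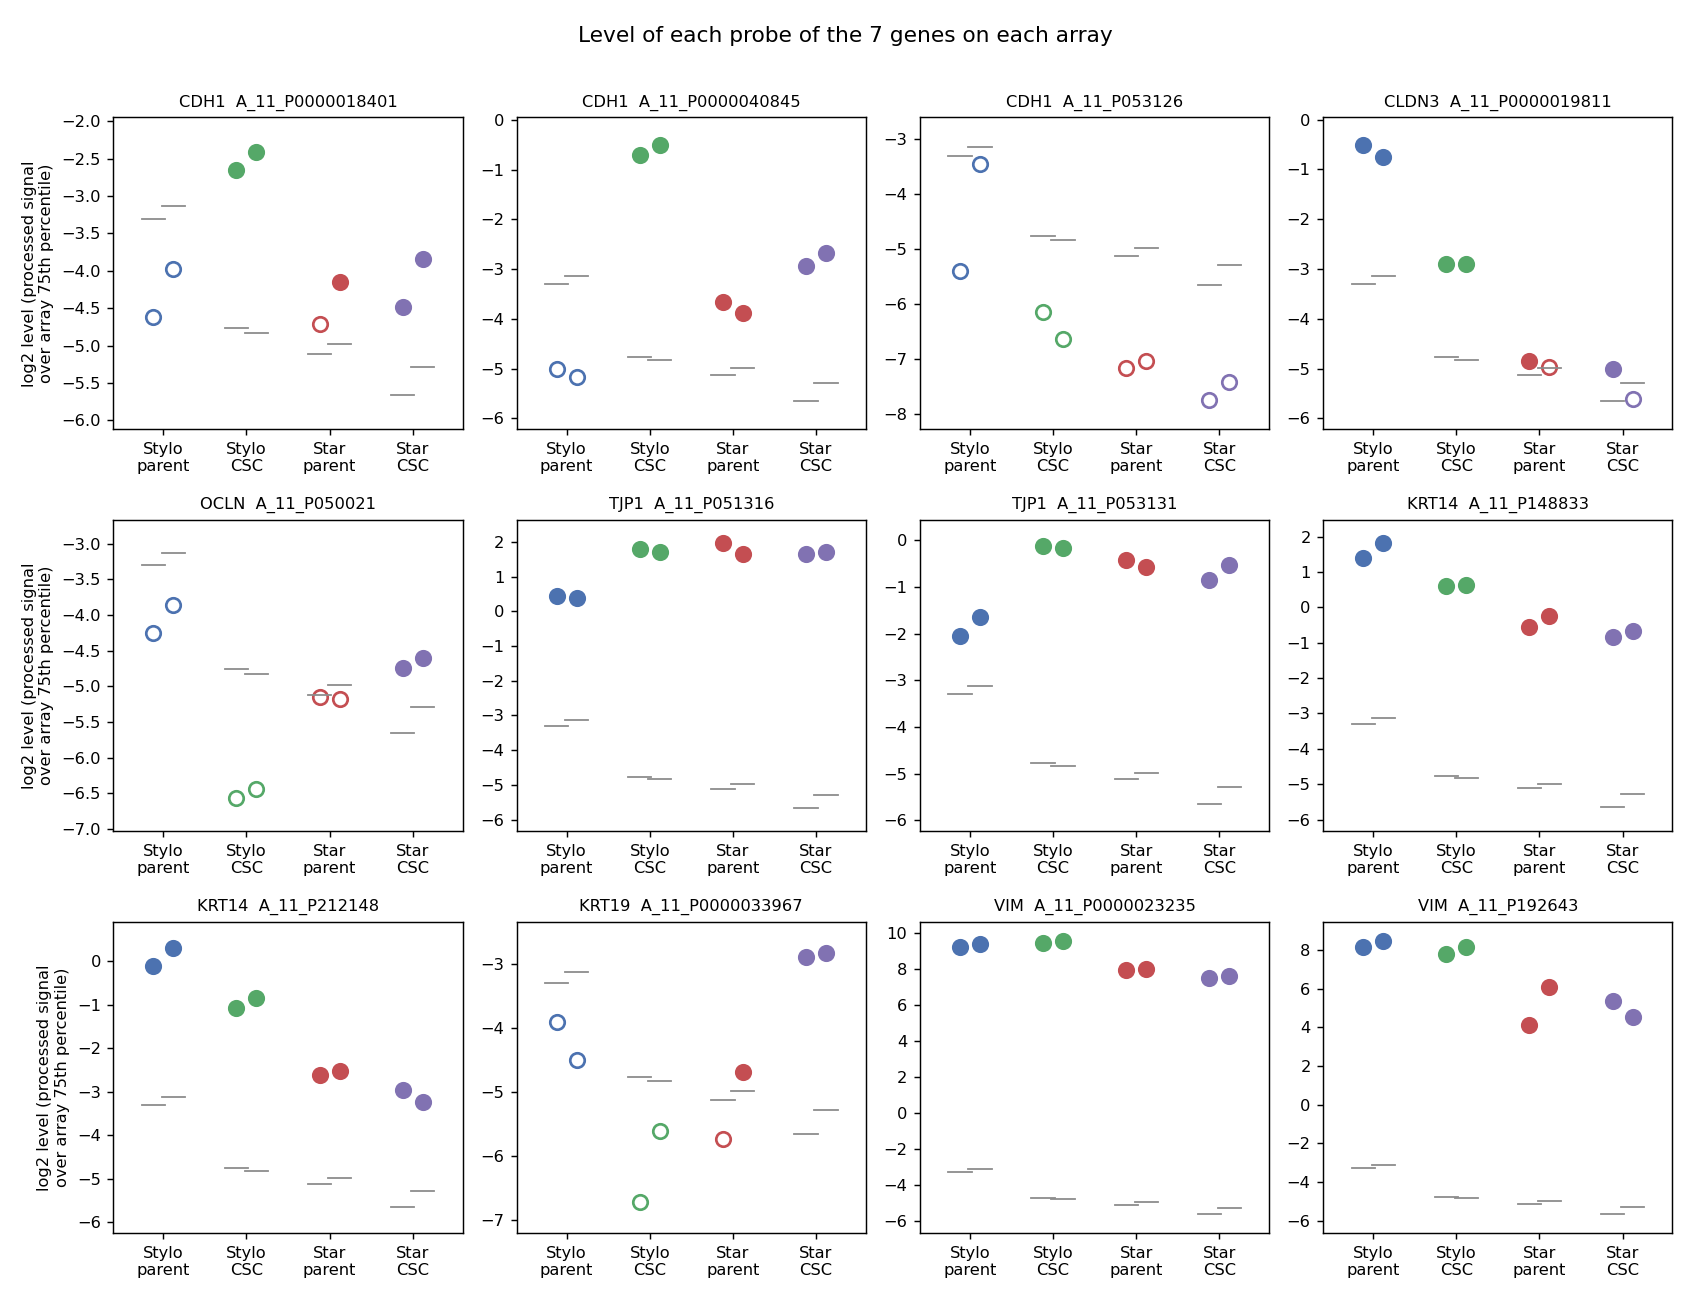
Level of each of the 12 probes (log2 processed signal over the array's 75th percentile, vertical axis, scaled separately in each panel) on the 2 arrays of each group (horizontal axis). Filled circles were well above background, open circles were not, and grey bars mark the faintest level well above background on that array. CDH1 is open in Stylo parent and filled in Stylo CSC, KRT19 is filled on both arrays in Star CSC alone, and CLDN3 is highest in Stylo parent.

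CLDN3, a claudin of mammary and gut epithelium, ran the other way from CDH1 between Stylo CSC and Stylo parent. Both genes were lower in Star CSC than in Stylo CSC. Its probe A_11_P0000019811 had levels of -0.51 and -0.75 in Stylo parent, -2.90 and -2.89 in Stylo CSC, -4.84 and -4.96 in Star parent, and -5.00 and -5.61 in Star CSC. Stylo parent was highest and Stylo CSC next, and the Star groups sat at the edge of detection, with 1 of 2 arrays well above background in each. CLDN3 was 19.2-fold lower in Star parent than in Stylo parent (-4.27 ± 0.21, limma adjusted p = 1.18e-05), a fall called under all 6 other scalings.

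Within Stylo, CLDN3 was 4.80-fold lower in the CSC fraction than in the parent (-2.26 ± 0.21, adjusted p = 0.000159). Between the CSC fractions it was 5.30-fold lower in Star (-2.41 ± 0.21, adjusted p = 0.000337). Star CSC and Star parent differed by -0.41 ± 0.21 (adjusted p = 0.192), which was not called. In processed signal the CLDN3 values were 61.9 and 41.0 in Stylo parent against 41.4 and 39.9 in Stylo CSC, so the fall within Stylo appeared on scaling to the 75th percentile. It was not called with spike-in scaling (-0.17), and the call between the CSC fractions ended with normexp (-0.94).

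OCLN, the gene of the 4-pass membrane protein occludin, was detected only in the CSC fraction of the resistant line. The probe A_11_P050021, printed as 5 spots per array, had levels of -4.25 and -3.85 in Stylo parent, -6.56 and -6.44 in Stylo CSC, -5.15 and -5.18 in Star parent, and -4.74 and -4.60 in Star CSC. Only the Star CSC values were well above background, and these too were faint. They lay under the faintest level well above background on the Stylo parent arrays (-3.30 and -3.13), so OCLN at such a level could not have been detected there. Against Stylo CSC, the OCLN signal of Star CSC was higher by at least 1.09-fold (1.83 ± 0.15, adjusted p = 0.000299), with normexp giving -0.22. Against Star parent the bound was 1.30-fold, and the difference was not called (0.50 ± 0.15, adjusted p = 0.0580). The Stylo groups and Star parent give no fold among themselves.

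TJP1, the scaffold under both junction types, was measured on every array by both of its probes and was lowest in Stylo parent. A_11_P051316, also printed as 5 spots, had levels of 0.44 and 0.38 in Stylo parent, 1.79 and 1.71 in Stylo CSC, 1.97 and 1.66 in Star parent, and 1.66 and 1.71 in Star CSC. A_11_P053131 had levels of -2.04 and -1.64, then -0.13 and -0.17, then -0.42 and -0.56, then -0.85 and -0.52 in the same order. On both probes Stylo parent lay below all 6 other arrays, and the 2 Star groups overlapped.

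The 2 TJP1 probes gave similar sizes. TJP1 was 2.65-fold and 2.54-fold higher in Star parent than in Stylo parent (1.41 ± 0.13 and 1.35 ± 0.18, adjusted p = 0.000119 and 0.000675). It was 2.54-fold and 3.22-fold higher in Stylo CSC than in Stylo parent (1.34 ± 0.13 and 1.69 ± 0.18, adjusted p = 0.000170 and 0.000273). On the brighter probe both rises were called under all 6 other scalings, and on the fainter one normexp gave -0.57 and -0.11. Star CSC differed from Star parent by -0.13 ± 0.13 and -0.20 ± 0.18 and from Stylo CSC by -0.06 ± 0.13 and -0.54 ± 0.18, and neither comparison was called on either probe.

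KRT14, the basal keratin, was well above background on all 8 arrays and fell from Stylo parent to the Star groups. Probe A_11_P148833 had levels of 1.38 and 1.81 in Stylo parent, 0.59 and 0.64 in Stylo CSC, -0.55 and -0.26 in Star parent, and -0.83 and -0.67 in Star CSC. Probe A_11_P212148 had -0.10 and 0.31, then -1.07 and -0.84, then -2.61 and -2.51, then -2.96 and -3.24. The 2 probes ranked the groups alike by level, with no overlap between neighbours in that order. In processed signal A_11_P148833 read 230 and 242 in Stylo parent and 254 and 276 in Star parent. Its fall between these 2 groups thus appeared on scaling. The signal of A_11_P212148 was 82.1 and 85.8 in Stylo parent and 60.7 and 57.9 in Star parent.

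KRT14 was 3.99-fold and 6.34-fold lower in Star parent than in Stylo parent (-2.00 ± 0.18 and -2.67 ± 0.18, limma adjusted p = 0.000112 and 3.79e-05). It was 2.58-fold and 4.42-fold lower in Star CSC than in Stylo CSC (-1.37 ± 0.18 and -2.14 ± 0.18, adjusted p = 0.00136 and 0.000304). The fainter probe kept both calls under all 6 other scalings, while on the brighter one spike-in scaling ended both (-0.93 and -0.71) and normexp the first (-0.86). The difference between Stylo CSC and Stylo parent straddled the limit, at 1.97-fold lower and not called on A_11_P148833 (-0.98 ± 0.18) and 2.08-fold lower and called on A_11_P212148 (-1.06 ± 0.18, adjusted p = 0.00233). Spike-in scaling turned both (1.12 and 1.04). Star CSC against Star parent gave -0.35 ± 0.18 and -0.54 ± 0.18, neither called.

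KRT19, the small keratin of luminal cells, was at or below background except in Star CSC. Probe A_11_P0000033967 had processed signals of 5.88 and 3.05 in Stylo parent, 2.95 and 6.07 in Stylo CSC, 6.99 and 12.8 in Star parent, and 71.8 and 64.7 in Star CSC. Its levels were -3.91 and -4.50, then -6.71 and -5.61, then -5.73 and -4.70, then -2.90 and -2.84. Star CSC stood above every other array, and the second Star parent array was the only other one well above background.

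KRT19 was 5.07-fold higher in Star CSC than in Star parent, where 1 of 2 arrays measured it (2.34 ± 0.48, limma adjusted p = 0.0174), and at least 3.80-fold higher than in Stylo CSC (3.29 ± 0.48, adjusted p = 0.00217). The first of these calls rests on few arrays: the adjusted p rose to 0.0588 without Star CSC replicate 1, to 0.0723 without Star CSC replicate 2 and to 0.0722 without Star parent replicate 1. Normexp ended both calls (log2 differences of 0.26 and 0.53). The Stylo groups were both below background and no fold is given between them.

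VIM, the mesenchymal filament, was among the bright probes of every array, including those of the groups with detectable CDH1. Probe A_11_P0000023235 had levels of 9.18 and 9.37 in Stylo parent, 9.41 and 9.55 in Stylo CSC, 7.93 and 7.96 in Star parent, and 7.48 and 7.59 in Star CSC. The Stylo arrays all lay above the Star arrays, and no groups overlapped. Probe A_11_P192643 had 8.19 and 8.47, then 7.80 and 8.15, then 4.13 and 6.08, then 5.36 and 4.54. On this probe too the Stylo arrays lay above the Star arrays, but the Star parent replicates differed 3.88-fold and the Star groups overlapped.

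VIM was 3.86-fold lower in Star CSC than in Stylo CSC on the brighter probe (-1.95 ± 0.11, adjusted p = 9.45e-05) and 8.15-fold lower on the other (-3.03 ± 0.64, adjusted p = 0.00871). The brighter probe lost this call with quantile normalization (-0.33) and cyclic loess (-0.99), and the other kept it under all 6 scalings. Between the parent lines it was 2.51-fold lower in Star on the brighter probe (-1.33 ± 0.11, adjusted p = 9.42e-05) and 9.33-fold lower on the other (-3.22 ± 0.64, adjusted p = 0.00412). The direction on the brighter probe depends on the scaling, with 0.98 after quantile normalization, 0.62 after cyclic loess and 0.10 after normexp. The fainter probe stayed lower in Star parent under every scaling tried, though quantile normalization ended its call (-1.58), and its size rests on which Star parent array is used (-2.24 without Star parent replicate 1, -4.20 without Star parent replicate 2). Stylo CSC against Stylo parent (0.21 ± 0.11 and -0.35 ± 0.64) and Star CSC against Star parent (-0.41 ± 0.11 and -0.16 ± 0.64) were not called on either probe. On the brighter probe the Stylo pair stayed uncalled under only 2 of the 6 other scalings and was called higher in Stylo CSC under the rest. Its values ran from 0.41 to 2.30 under these scalings.

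Set out by comparison, the resistant parent line differed from the untreated parent line in lower CLDN3 (19.2-fold), KRT14 (3.99-fold and 6.34-fold) and VIM (2.51-fold and 9.33-fold) and in higher TJP1 (2.65-fold and 2.54-fold). The 2.51-fold value of VIM's brighter probe kept its call under 1 of 6 other scalings and changed direction under 3 of them (quantile, cyclic loess and normexp). Of the 11 tested probes, 3 were called higher and 6 lower. Over all 26823 tested probes 56.5% were called (24.6% higher, 31.9% lower), so most probes of the array changed too. The median log2 difference was -1.12 for the 11 probes and -0.20 for all tested probes. Among the 7 probes with a fold or a bound, 2 were called higher and 5 lower.

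The Stylo CSC fraction had more CDH1 (at least 6.12-fold and 1.61-fold) and TJP1 (2.54-fold and 3.22-fold) and less CLDN3 (4.80-fold) than the Stylo parent. Normexp turned the CDH1 values and that of the fainter TJP1 probe, and spike-in scaling ended the call of CLDN3. Of the 11 tested probes 4 were called higher and 4 lower, where 54.0% of all tested probes were called (21.9% higher, 32.1% lower). Of the 9 with a fold or a bound, 4 were called higher and 2 lower. The median over the 11 was -0.35, against -0.28 over all tested probes.

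The Star CSC fraction differed from Star parent in KRT19 alone among the 11 probes, which was called higher (5.07-fold, with Star parent well above background on 1 of its 2 arrays). Across the array 9.72% of tested probes were called (3.22% higher, 6.51% lower). The median over the 11 was -0.16 and over all tested probes -0.10. CDH1 came nearest to the limit among the rest, at 1.97-fold higher. Its brighter probe stayed uncalled under only 2 of the 6 other scalings and was called higher under the rest. The values under these scalings ran from -0.10 to 2.66.

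The 2 CSC fractions differed widely. Star CSC had less CDH1 (4.59-fold and 3.11-fold), CLDN3 (5.30-fold), KRT14 (2.58-fold and 4.42-fold) and VIM (3.86-fold and 8.15-fold) than Stylo CSC, and more KRT19 (at least 3.80-fold) and OCLN (at least 1.09-fold). That is 2 of 11 probes called higher and 7 lower, where 29.4% of all tested probes were called (12.6% higher, 16.9% lower). The median over the 11 was -1.64 and over all tested probes -0.10. Leaving both dim Stylo parent arrays out of the fit, an alternative chosen after seeing the data, changed none of the member calls in this comparison or in Star CSC against Star parent. That fit leaves these differences as they are and can move only their SE and p, so it says little about the dim arrays.

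**Figure D2:**
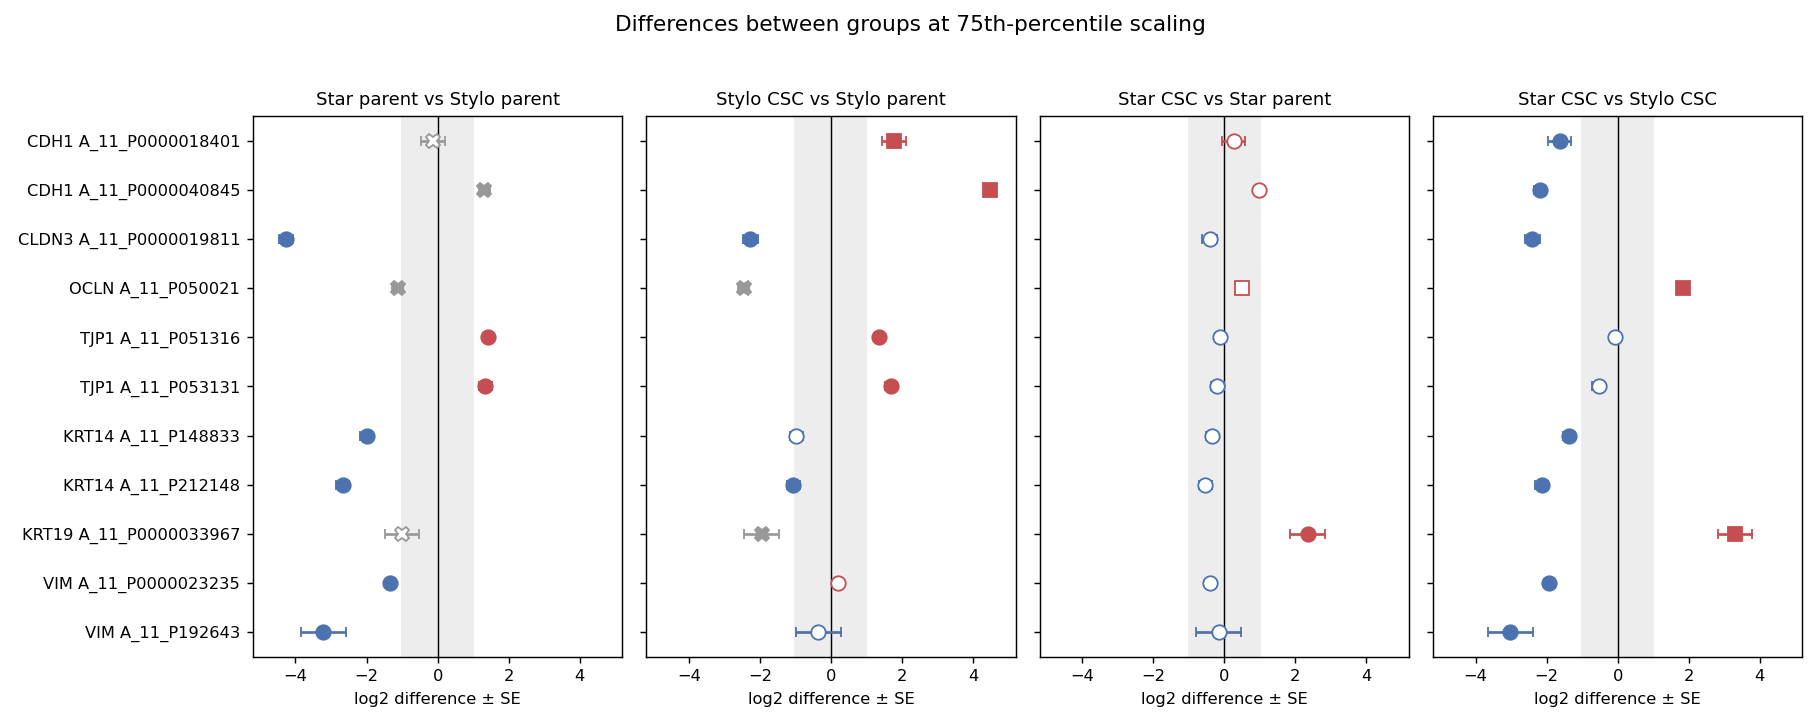
Log2 difference with its SE (horizontal axis) for the 11 tested probes in the 4 comparisons. Circles are differences with a measured fold, squares have 1 group below background and only a bound, grey crosses have no fold, filled symbols passed the test and the grey band is less than 2-fold. Star CSC against Star parent holds 1 filled symbol, KRT19, while Star CSC against Stylo CSC holds 9.

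The change from parent to CSC was not the same in the 2 lines. The test of the difference between them called 3 of the 11 probes higher in Star and 4 lower, where 52.1% of all tested probes were called (28.2% higher, 24.0% lower). For CDH1 the log2 change was 4.49 in Stylo and 0.98 in Star on the brighter probe, a difference of -3.51 ± 0.21 (limma adjusted p = 7.13e-05). CDH1 was below background in Stylo parent, so 4.49 and -3.51 are fitted values against an unmeasured level, and normexp gave a difference of -0.017 that was not called. For TJP1 it was 1.34 against -0.13 on the brighter probe (difference -1.47 ± 0.18, adjusted p = 0.000751). For CLDN3 the changes were -2.26 and -0.41 (difference 1.86 ± 0.30, adjusted p = 0.00230), a call that spike-in scaling ended (1.45). KRT14 and VIM were not called in this test on any probe, with VIM at -0.62 ± 0.16 on the brighter probe (adjusted p = 0.0160), under the 2-fold limit. Under the 6 other scalings that VIM value ran from -2.20 to -0.80 and stayed uncalled in 3 of them.

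Because a scaling constant cancels in the ratio of 2 probes of the same array, each probe was also set against the brighter VIM probe. The log2 ratio of CDH1 (A_11_P0000040845) to VIM was -14.19 and -14.54 in Stylo parent, -10.11 and -10.06 in Stylo CSC, -11.59 and -11.85 in Star parent, and -10.42 and -10.26 in Star CSC. Stylo parent was lowest, with its CDH1 below background, and both CSC fractions lay above their parents. The ratio was 1.38 higher in Star CSC than in Star parent. No size is given for the Stylo pair, since CDH1 was not measured in Stylo parent. It differed by -0.25 between the CSC fractions, where CDH1 and VIM were both lower in Star.

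The ratio of TJP1 (A_11_P051316) to VIM ran from -8.99 to -8.74 in Stylo parent, -7.84 to -7.63 in Stylo CSC, -6.31 to -5.96 in Star parent and -5.88 to -5.82 in Star CSC. All 4 Star arrays lay above all 4 Stylo arrays in this ratio. Between the CSC fractions TJP1 itself differed by -0.06 and was not called, while VIM was lower in Star (-1.95). The ratio of CLDN3 to VIM differed by -2.94 between Star parent and Stylo parent and by -0.46 between the CSC fractions. KRT14 to VIM was lower in Stylo CSC than in Stylo parent by -1.19 and -1.27 on its 2 probes, and differed by 0.58 and -0.20 between Star CSC and Stylo CSC. KRT19 to VIM was 2.75 higher in Star CSC than in Star parent. These ratios show unequal change of 2 probes and carry no test.

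**Figure D3:**
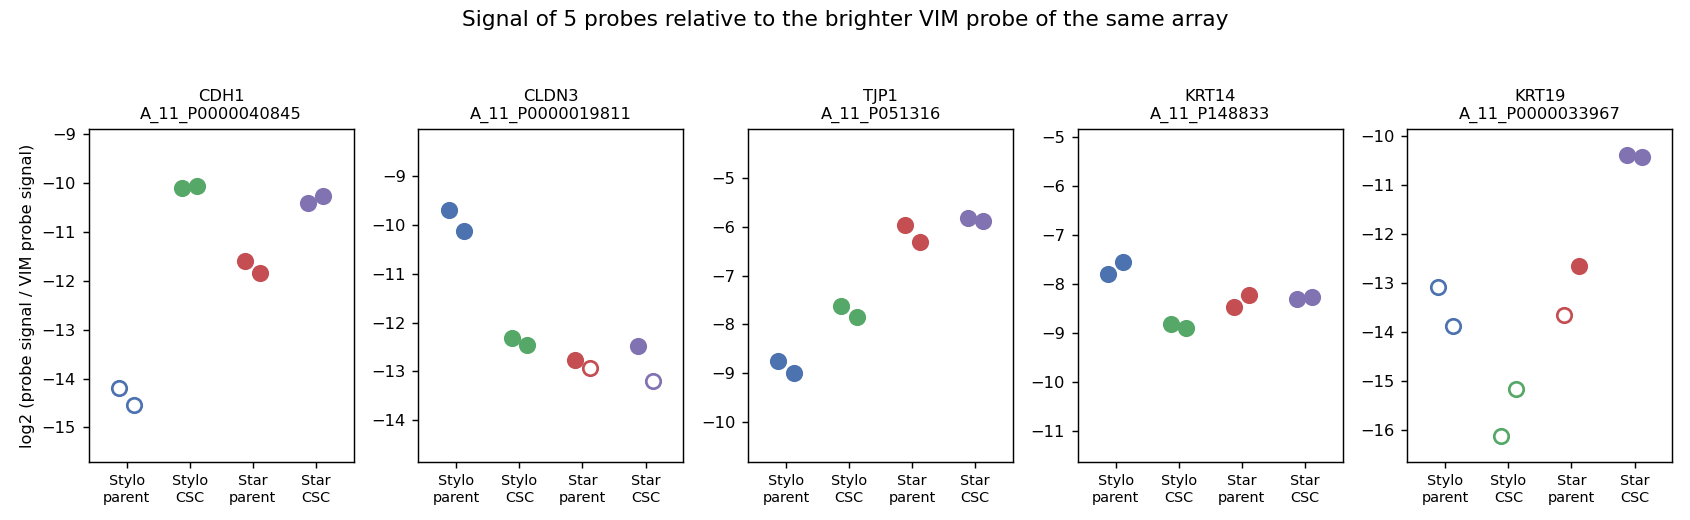
Log2 ratio of the signal of 5 probes to that of VIM probe A_11_P0000023235 on the same array (vertical axis, the same span in each panel) by group. Open circles mark arrays on which the numerator probe was not well above background. CDH1 stands at -10.11 and -10.06 in Stylo CSC, above its open circles at -14.19 and -14.54 in Stylo parent, where it was not measured. The ratio of TJP1 to VIM is higher on all Star arrays than on all Stylo arrays.

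How far each difference depends on the scaling varied by gene. Over all tested probes, the share of calls that were higher in Star parent than in Stylo parent was 43.5% with the 75th percentile and ran from 25.2% (normexp) to 77.0% (spike-in) with the other scalings. For Stylo CSC against Stylo parent it was 40.6% and ran from 25.8% to 98.4%, for Star CSC against Star parent 33.1% and 32.5% to 99.3%, and for Star CSC against Stylo CSC 42.8% and 35.2% to 78.6%, the lowest being normexp and the highest spike-in each time. Spike-in scaling moved the median of all tested probes to 1.82 for Stylo CSC against Stylo parent and to 1.58 for Star CSC against Star parent, and the KRT14, TJP1, VIM and CLDN3 values of Star CSC against Star parent under it (1.15 to 1.56) lay under that shift. Under every scaling tried, CLDN3 and KRT14 (A_11_P212148) were called lower in Star parent than in Stylo parent, and TJP1 (A_11_P051316) was called higher both there and in Stylo CSC.

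**Figure D4:**
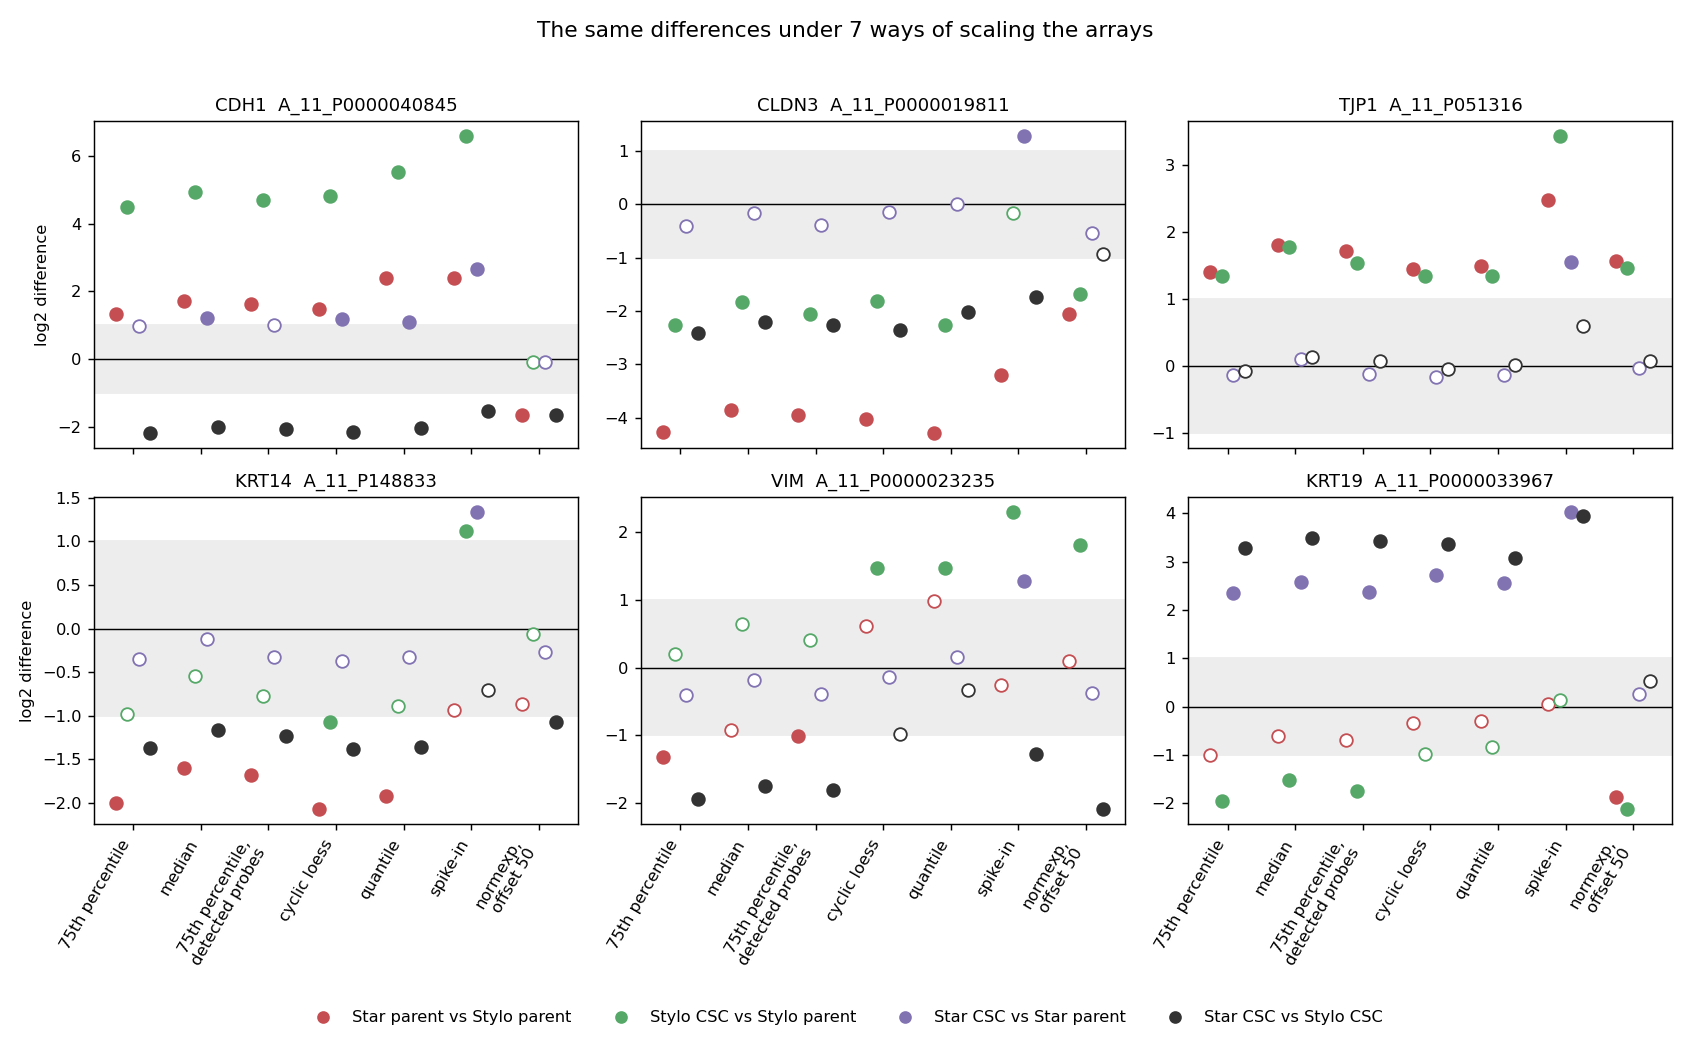
Log2 difference (vertical axis, scaled separately in each panel) of 6 probes in the 4 comparisons, under the 75th percentile and 6 other scalings (horizontal axis). Filled circles passed the test, the grey band is less than 2-fold. VIM in Star parent against Stylo parent runs from -1.33 to 0.98, while TJP1 in that comparison stays between 1.41 and 2.48.

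Further genes of the same structures were read from lists chosen with earlier results of these data known, and few of their members had a named probe. Of 16 other adherens junction genes, 5 had one and 4 were tested. In Stylo CSC against Stylo parent 3 of the 4 were called higher and none lower (median 1.73), where 21.9% of all tested probes were called higher. In Star CSC against Stylo CSC 3 were called lower and none higher (median -1.40), beside 16.9% called lower over all tested probes. JUP, which codes for plakoglobin, a catenin of adherens junctions and desmosomes, was 6.47-fold higher in Stylo CSC than in its parent (2.69 ± 0.16), 2.73-fold higher in Star parent than in Stylo parent (1.45 ± 0.16) and 2.75-fold lower in Star CSC than in Stylo CSC (-1.46 ± 0.16). Its levels were 2.39 and 2.59, then 5.19 and 5.17, then 3.80 and 4.08, then 3.89 and 3.55, with Stylo CSC highest and the Star groups overlapping. All 4 other JUP probes were called lower in Star CSC than in Stylo CSC, but against Stylo parent they disagreed. A_11_P00000781 gave 0.08 in Stylo CSC and -0.78 in Star parent, and A_11_P0000025358 gave 0.47 in Star parent, none called. Both were below background in Stylo parent. The remaining values were called higher.

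CDH2, the neural cadherin often set against CDH1, moved in the same direction as CDH1 in Stylo. It was 3.47-fold higher in Stylo CSC than in Stylo parent (1.79 ± 0.12) and 2.51-fold lower in Star CSC than in Stylo CSC (-1.33 ± 0.12) on its brightest probe, although in Stylo 1 of its other 2 probes gave 0.55. Spike-in scaling ended the calls of JUP (-0.80) and CDH2 (-0.67) between the CSC fractions. Levels were 3.07 and 2.93 in Stylo parent, 4.78 and 4.81 in Stylo CSC, 3.58 and 3.29 in Star parent, and 3.45 and 3.48 in Star CSC. NECTIN1, an adhesion receptor of adherens junctions, was below background in Stylo parent and at least 1.39-fold higher in Stylo CSC (1.67 ± 0.47), a call kept in 2 of 4 fits that left out a replicate and turned by normexp (-1.43). The brightest probe of CTNNB1, beta-catenin, was 4.07-fold lower in Star CSC than in Stylo CSC (-2.02 ± 0.21), with 1 Star parent spot left out as an outlier, but its probes disagreed, and A_11_P071276 had levels of 2.75 and 2.69 in Stylo CSC against 2.95 and 2.94 in Star CSC.

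Few of the other tight junction genes had a named probe. CGN, cingulin, a cytoplasmic partner of ZO-1, was 4.48-fold higher in Star CSC than in Stylo CSC (2.16 ± 0.34) and at least 1.25-fold higher in Star parent than in Stylo parent (2.00 ± 0.34). Of 14 desmosome genes, DSG3, a desmosomal cadherin, was the 1 tested, below background in both Stylo groups and at least 1.58-fold higher in Star CSC than in Stylo CSC (2.98 ± 0.41). Normexp ended the calls of CGN (0.745) and DSG3 (0.10) between the CSC fractions and turned that of CGN between the parents (-1.17). Hemidesmosome genes gave no tested probe.

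Of the gap junction genes, which form channels between cells, GJA1 and GJB2 were lower in the resistant line. Of 3 tested of 9, 2 were called lower and none higher in each of Star parent against Stylo parent, Stylo CSC against Stylo parent and Star CSC against Stylo CSC. Over all tested probes 31.9%, 32.1% and 16.9% were called lower in these comparisons. GJA1, connexin 43, had levels of 2.03 and 1.87 in Stylo parent, 1.01 and 0.83 in Stylo CSC, -0.25 and -0.61 in Star parent, and -1.05 and -1.11 in Star CSC, with no overlap. It was 5.21-fold lower in Star parent than in Stylo parent (-2.38 ± 0.15) and 4.01-fold lower in Star CSC than in Stylo CSC (-2.00 ± 0.15), both called under all 6 other scalings. GJB2, connexin 26, was 7.40-fold lower in Star parent than in Stylo parent (-2.89 ± 0.39). The fall of GJA1 within Stylo (-1.03 ± 0.15) was at the limit and was called under 1 of the 6 other scalings.

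KRT15, a basal keratin and the only other keratin tested of 19 on the list, was called higher in all 4 comparisons and under all 6 other scalings in each. Its levels were 1.18 and 1.29 in Stylo parent, 2.25 and 2.35 in Stylo CSC, 2.30 and 2.49 in Star parent, and 4.55 and 4.77 in Star CSC. Star CSC stood highest and Stylo parent lowest, with Stylo CSC and Star parent overlapping between them. KRT15 was 4.81-fold higher in Star CSC than in Star parent (2.27 ± 0.13, limma adjusted p = 0.000498) and 5.14-fold higher than in Stylo CSC (2.36 ± 0.13, adjusted p = 7.48e-05). In the gene order of the RefSeq table (UU_Cfam_GSD_1.0), KRT15 lies next to KRT19, with KRT9 between KRT19 and KRT14. KRT15 and KRT19 were thus higher in Star CSC than in Star parent, where KRT14 was not called. Keratins resemble each other in sequence, and cross-hybridisation was not tested.

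Among 18 regulators of epithelial-to-mesenchymal transition 3 were tested. SNAI2, a repressor of CDH1, was 2.62-fold higher in Star CSC than in Stylo CSC (1.39 ± 0.11). WNT5A, a Wnt ligand, was 47.8-fold lower there (-5.58 ± 0.38) and 3.57-fold lower in Star CSC than in Star parent (-1.84 ± 0.38). The latter call ended with spike-in scaling (-0.15) and in 2 of 5 fits that left out a replicate or both Stylo parent arrays. TCF4, a transcription factor of the E-protein family, was 2.42-fold higher in Stylo CSC than in Stylo parent (1.28 ± 0.16), but stood at -0.15 with normexp. Of 2 tested genes of epithelial identity, both were called higher in Star CSC than in Stylo CSC, where 12.6% of all tested probes were: SPINT2, an inhibitor of membrane serine proteases (3.55-fold, 1.83 ± 0.14), and MUC1, the apical mucin (at least 10.2-fold, 4.34 ± 0.62, below background in Stylo CSC, and 0.96 and not called with normexp). SPINT2 was 2.41-fold lower in Stylo CSC than in Stylo parent (-1.27 ± 0.14), a call kept under 3 of the 6 other scalings.

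Mesenchymal genes, a list of 13 with 6 tested, were called lower in Star CSC than in Stylo CSC in 6 of 6 by their brightest probes (median -1.92), where 16.9% of all tested probes were called lower. COL1A2's probes disagreed there, since 3 of its 6 were not called (-0.93, -0.38 and -0.34). COL1A1, a fibrillar collagen chain, was 77.2-fold lower (-6.27 ± 0.12). S100A4, a calcium-binding protein of motile cells, was 2.84-fold lower (-1.50 ± 0.11), but stood at 0.07 after quantile normalization. In Stylo CSC against Stylo parent 4 were called higher and 2 lower, where 21.9% of all tested probes were called higher and 32.1% lower. COL1A2 was among the first (8.14-fold, 3.03 ± 0.23) and S100A4 among the second (3.90-fold, -1.96 ± 0.11). In Star CSC against Star parent, TNC, an extracellular matrix glycoprotein, was called lower (16.5-fold, -4.04 ± 0.14) and the other 5 were not called. Over all tested probes 6.51% were called lower there. The 2 THY1 probes disagreed in Stylo CSC against Stylo parent, with levels of 1.89 and 2.19 against 4.80 and 4.74 on the brighter and 2.34 and 2.10 against -0.16 and 0.11 on the other. Of the other intermediate filament genes, 2 of 14 were tested, and DES, desmin of muscle, was at least 1.85-fold lower in Star CSC than in Star parent (-1.69 ± 0.35). That call ended in 3 of 5 fits that left out a replicate or both Stylo parent arrays. LMNA, which codes for lamins A and C of the nuclear lamina, was called in none of the 4 comparisons on its brightest probe. In Stylo CSC against Stylo parent that probe gave 0.88 ± 0.12 and was called higher under all 6 other scalings (1.09 to 2.98). Its change from parent to CSC was lower in Star than in Stylo (-1.06 ± 0.17, limma adjusted p = 0.00244). The LMNA probes disagreed. A_11_P0000015479 was called higher than in Stylo parent both in Star parent (3.52-fold) and in Stylo CSC (2.12-fold), and A_11_P052911 in Star parent (2.06-fold).

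**Figure D5:**
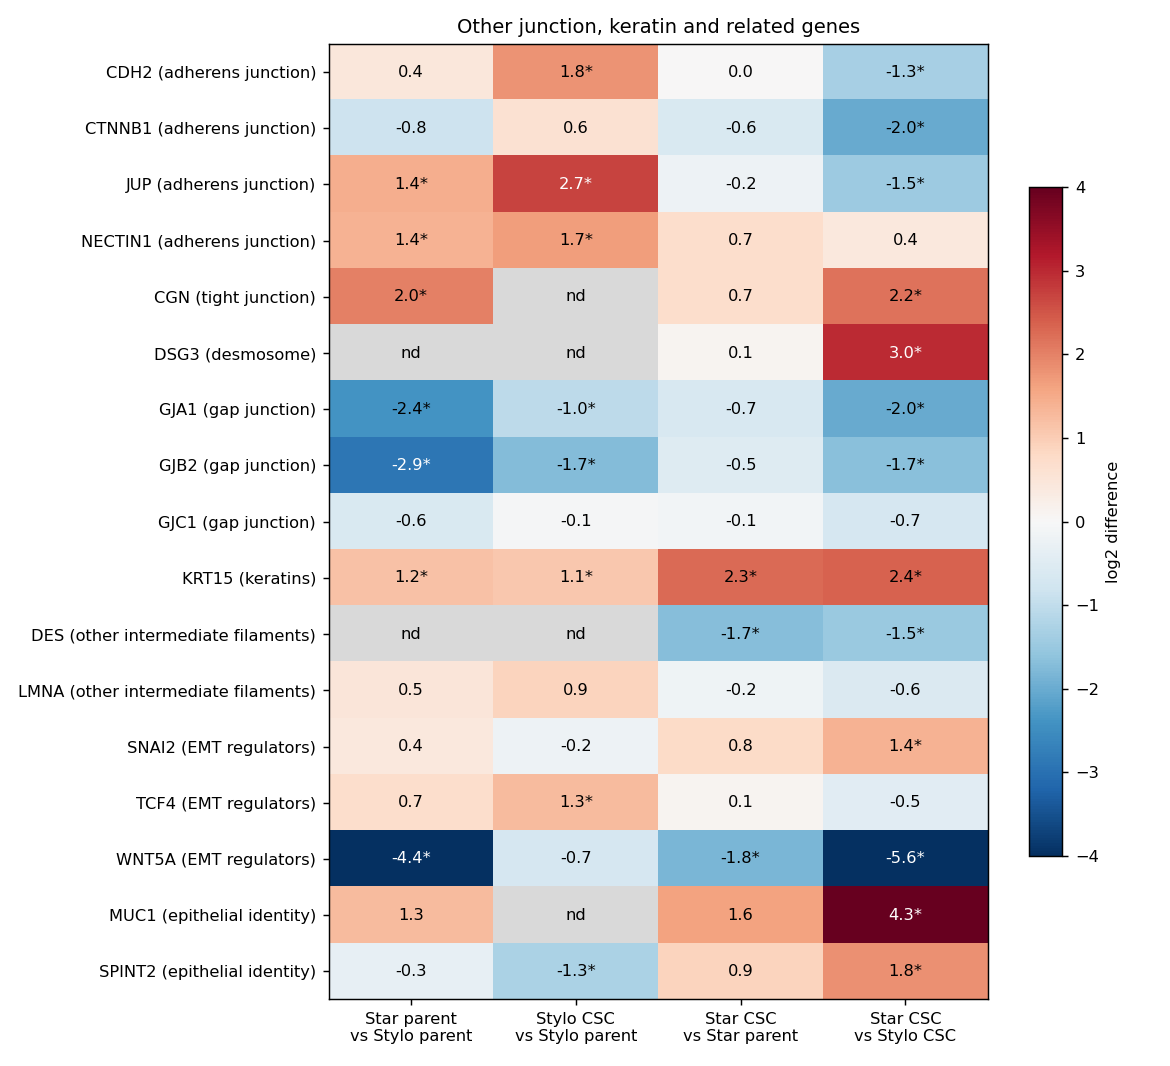
Log2 difference (colour and number) of other junction, intermediate filament, transition and epithelial genes (rows, brightest tested probe) in the 4 comparisons (columns). An asterisk marks a difference that passed the test, and nd on grey marks pairs of groups with no fold. KRT15 is marked in all 4 columns, and JUP and CDH2 are higher in Stylo CSC than in Stylo parent and lower in Star CSC than in Stylo CSC.

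The genes whose profile over the 8 arrays was most like that of a member were found among 973 named genes with a tested probe, as a description over arrays that share line, slide and brightness. For CDH1 they were ADGRL2, an adhesion G protein-coupled receptor (r = 0.990), and SLC29A1, a nucleoside transporter (r = 0.988). For CLDN3 they were the ribosomal protein gene RPL36AL (r = 0.997) and KLRA1 (r = 0.995), and for TJP1 the cation channel gene TRPV4 (r = 0.993) and the calcium pump gene ATP2A2 (r = 0.992). For KRT14 they were the cap-binding protein gene EIF4E2 and the ribosomal protein gene RPL23 (both r = 0.993), and for VIM the cystine transporter gene SLC7A11 (r = 0.995) and IL10 (r = 0.993), of which IL10 was well above background on 2 arrays. OCLN and KRT19 were detected on too few arrays for this comparison.

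Markers of cell types were read beside these results. Of 12 luminal markers 6 had a named probe, and 2 were well above background on both arrays in Stylo parent (CLDN3, PGR), 3 in Stylo CSC (CDH1, CLDN3, PGR), 3 in Star parent (CDH1, MUC1, PGR) and 4 in Star CSC (KRT19, CDH1, MUC1, PGR). ESR1 was detected on both arrays in no group, and EPCAM, KRT8 and KRT18 were not analysed here. The 2 basal markers with a named probe, KRT14 and MME, were detected in every group. All 6 fibroblast markers with a named probe, VIM among them, were detected in every group. Their summed level, relative to the 75th percentile, was 664 to 739 in Stylo parent, 1291 to 1399 in Stylo CSC, 376 to 441 in Star parent and 293 to 318 in Star CSC. VIM and COL1A2 carried most of that sum, so it says little about the fainter markers of the list. DCN, decorin, was 44.3-fold lower in Star parent than in Stylo parent and 128-fold lower in Star CSC than in Stylo CSC on its brightest probe. PDGFRB, a receptor of platelet-derived growth factor, was 5.13-fold lower in Star parent than in Stylo parent and not called between the CSC fractions (-0.94 ± 0.37). Unlike the sum, it was lower in Stylo CSC than in Stylo parent (2.13-fold, -1.09 ± 0.37), a call kept under 3 of the 6 other scalings. Of the endothelial markers, VWF was detected in every group and KDR in the Star groups only. The KDR levels of Star CSC (-4.20 and -3.99) lay under the faintest level that the Stylo parent arrays could detect. Those of Star parent (-3.34 and -3.19) lay at about that level, so KDR gives no fold between the parents. Of 6 leukocyte markers, none was detected on both arrays in either Stylo group, 2 were in Star parent (CD86, CD79A) and 3 in Star CSC (CD86, TYROBP, CD79A). The CD86 levels of Star parent (-4.09 and -3.92) also lay under what Stylo parent could detect. Those of TYROBP in Star CSC (-5.08 and -5.14) lay under what either Stylo group could detect. CD79A was also well above background on 1 array of each Stylo group, and its fitted level was lower in Star parent than in Stylo parent (2.51-fold, -1.33 ± 0.34). CD44, a protein used for the sort, had levels of 0.81 and 1.15 in Stylo parent, 2.01 and 1.92 in Stylo CSC, 2.00 and 2.10 in Star parent, and 1.15 and 1.19 in Star CSC, so its RNA was not higher in Star CSC than in Star parent (-0.88 ± 0.14). The part of these markers in the junction and filament results was not tested.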

How the data were processed

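RNA of 8 samples was hybridised to canine 1-colour arrays. The authors' scanner files hold spot intensities (processed signal, background, flags) from Agilent Feature Extraction (version 11.5.1.1), as their headers state. The deposited series matrix holds log2 values. It matched log2 of the processed signal less the 75th percentile, centred per probe, with an SD of at most 5.6e-07 over 18346 probes, and its column medians ran from -0.27 to 1.01.

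Control and outlier spots were left out and spots of a probe averaged. A RefSeq gene table (UU_Cfam_GSD_1.0, used for names and gene order only) named 2353 of 43603 probes (5.40%). The members and lists were chosen with earlier results of these data known. Named genes were all member probes, genes of the related lists called at least once, and the 2 nearest profiles. Cell-type markers are given by detection, with DCN, PDGFRB and CD79A named after their values were seen. Of the list genes, 1 is not reported here. A gene outside the 7 is given by its brightest tested probe.

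Testing required that a probe be well above background on 2 arrays of the same group. limma 3.58.1 in R 4.3.3 fitted 4 group means (two-sided tests). The fit was tested on simulated data. Where a group had no array well above background, a bound was computed against the higher of the faintest detected level and the probe's own on each array. "At least" marks such bounds. Sample titles share replicate numbers, but same-numbered samples did not deviate together (correlations -0.068 to 0.073), so no block was used. No sequence or coordinate is given.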

Additional observations from a re-analysis of the deposited data

Results flagged for a closer look

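The change from parent to CSC differed between the lines for 7 of the 11 tested member probes, each in the test of the difference itself (log2 change in Star less that in Stylo, limma adjusted p over all tested probes). Over all tested probes 52.1% were called in that test (28.2% higher, 24.0% lower), so most probes of the array differed too. CDH1 stood at -3.51 ± 0.21 (adjusted p = 7.13e-05) on A_11_P0000040845 and at -1.50 ± 0.47 (0.0306) on A_11_P0000018401, the second kept in 3 of 8 fits that left out a replicate. CDH1 was below background in Stylo parent on both probes, so these are fitted values against an unmeasured level, and normexp gave -0.017 and 0.90, neither called. TJP1 stood at -1.47 ± 0.18 (0.000751) on A_11_P051316 and at -1.88 ± 0.25 (0.00109) on A_11_P053131. Normexp ended the call of A_11_P053131 (-0.11). Both TJP1 probes were higher in Stylo CSC than in Stylo parent and not called within Star. CLDN3 stood at 1.86 ± 0.30 (0.00230), with a fall in Stylo and no call in Star, where it was at the edge of detection. Spike-in scaling ended that call (1.45). KRT19 stood at 4.30 ± 0.68 (0.00220) and OCLN at 2.95 ± 0.22 (0.000121). For these 2 both Stylo groups were below background, so the Stylo side was not measured. All 7 comparisons include the Stylo parent arrays, whose signal was low.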

How the results depend on the processing

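Over 21 alternatives, 831 of 914 member values kept their side of the threshold without reversing a call, 41 lost a call, 21 gained one and 21 reversed with a call on one side. Of the 831, 42 changed sign with neither value called. The deposited matrix, the stricter filter, no filter, fits of only the arrays compared and the variance trend changed no member call. The replicate block, with 15147, 14458, 2525, 7867 and 13941 calls in the 5 contrasts, changed none either. Slide as a block was not run, since each slide holds 1 line. Reversals under normexp were CDH1 in Stylo CSC against Stylo parent (-0.087 and -1.37), in Star parent against Stylo parent (-1.65) and in the difference between the lines (0.90), TJP1 (A_11_P053131) in both comparisons with Stylo parent (-0.57 and -0.11), OCLN between the CSC fractions (-0.22) and VIM between the parents (0.10). VIM between the parents also reversed with quantile normalization (0.98) and cyclic loess (0.62). Under spike-in scaling, Star CSC against Star parent reversed for CLDN3 (1.28), KRT14 (1.34 and 1.15), TJP1 (1.56 and 1.49) and VIM (1.28 and 1.53), and Stylo CSC against Stylo parent for KRT14 (1.12 and 1.04), KRT19 (0.14) and VIM (1.74). Spike-in scaling gave 22062 calls in Star CSC against Star parent (2608 in the main setting) and 8241 in the difference between the lines (13987). Normexp gave 1143 and, between the CSC fractions, 4019 (7897). Without a filter on dim probes there were 26734 calls between the parents (15167), 28650 in Stylo CSC against Stylo parent (14483) and 21988 in the difference (13987). The cause of these changes was not tested. Signal over background limits CDH1, OCLN and KRT19 in Stylo parent and CLDN3 in Star.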
